A study of Mus musculus with 36 samples.

Results

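The axon guidance ligands and receptors measured here are the ephrins and Eph receptors, the semaphorins of classes 3 to 7 with the plexins and neuropilins, the Slits and Robos, and the netrins with netrin-G, Dcc and the Unc5 receptors. They were taken from the deposited count table by a rule on gene names, which 73 of 16614 rows met. Of these, 71 are guidance genes, and Unc50 and Unc5cl share only the start of a name with Unc5 and are given apart. Ribosome-protected fragments (RPFs) were sequenced from the pellet of a sucrose gradient, where RNA granules with stalled ribosomes sediment, and from fraction 5/6. That fraction holds ribosome clusters that do not pellet. RNA-seq was made from whole brain homogenate. The study asked whether loss of FMRP, the RNA-binding protein encoded by Fmr1, changes which mRNAs the pellet holds and where ribosomes sit on them. Brains came from postnatal day 5 mice, either wild type (WT, C57BL/6) or knockout for Fmr1 (FMR1 KO), and 10 brains were used for a preparation. Each genotype was prepared with 10 mM MgCl2 and more nuclease, called the standard preparation here and the M-protocol in the labels, and with 2.5 mM MgCl2 and less nuclease, called low nuclease here. Each combination of genotype, preparation and pellet, fraction 5/6 or RNA-seq had 3 libraries, 36 in all. The study writes of separate biological preparations, and the labels number the replicates without naming the pool of brains behind each. For RPFs, the study's methods combine the 3 tagged replicates of a condition before reverse transcription and PCR. The p-values therefore measure the spread between these libraries, and effects of such a joint reaction cannot be told apart from those of its condition. No cell type was selected, so in these whole-brain samples fewer cells of a type and less RNA per cell cannot be told apart.

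Guidance molecules steer the growing axon tip. Slits repel axons that carry Robo receptors, and netrins attract through Dcc and repel through Unc5 receptors. Class 3 semaphorins are secreted cues that bind neuropilins, which signal together with plexins. Ephrins are membrane-bound ligands of the Eph receptor tyrosine kinases, with a lipid anchor in the A class and a transmembrane domain in the B class. In the growth cone several of these cues act in part through local translation, and their receptors are translated into the secretory pathway.

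The standard RPF libraries held 6765065 to 40174168 counts, of which a single gene, Cdk8, took 36.7% to 63.4%. Levels are therefore given as CPM, the counts scaled to one common library total, without Cdk8, and 3 counts is taken as the floor of detection. In these CPM the 71 genes summed to 552, 556 and 828 in the WT pellet and to 695, 997 and 637 in the FMR1 KO pellet, against 1845, 1604 and 1684 in the WT RNA-seq. Intervals and floors cover counting error only. Fmr1 was at 64.6 to 67.8 CPM in the WT pellet and 4.79 to 4.93 CPM in the FMR1 KO pellet. The library labelled WT fraction 5/6 replicate 3 had 3.17 CPM of Fmr1, where the other two had 100.1 and 68.6, below the 4.79 CPM of the lowest FMR1 KO pellet, so its Fmr1 goes against its label. WT enrichment and the genotype difference in enrichment use it, and their counts are given without it too. In that library 50 of the 68 guidance genes with at least 10 counts were at the highest of the 3 WT fraction 5/6 levels, 73.5% against 41.5% over all genes. WT pellet replicate 3 was likewise the highest of its group for 50 of 66, against 26.4% over all genes, and FMR1 KO pellet replicate 2 was the lowest of its group for 44 of 67, against 76.6% over all genes. The 7 neuron markers summed to 5862 to 12220 CPM across the standard libraries. The 4 blood markers summed to 206 to 485 CPM in the RNA-seq and to 3.59 to 15.7 CPM in the RPFs, and the 5 oligodendrocyte lineage markers to 322 to 454 and 69.2 to 163 CPM. None of these markers was at 0 in a whole group, and their part in the results below was not tested.

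Among guidance mRNAs in the WT pellet, the transmembrane ligand ephrin-B3 and the receptors EphA4 and EphA5 were among the most abundant per length of coding sequence. Efnb3 was at 11.9 ± 1.98 CPM per kb of coding sequence (SD, n = 3), Epha4 at 9.88 ± 3.35, Efnb2 at 7.42 ± 1.02 and Sema7a, a semaphorin with a lipid anchor, at 7.37 ± 1.63. Epha5 followed at 7.22 ± 2.83, Efna5 at 5.84 ± 1.87 and Robo2 at 5.25 ± 2.37. The order of these 7 genes does not exceed the spread between neighbours. The median guidance gene was at 2.22 CPM per kb, and 5 of the 71 genes (Efna1, Efna4, Epha1, Robo3 and Robo4) had fewer than 10 counts over the 3 libraries. The other genes among the leading 10, Ntng1, Slit2 and Plxnb2, owed their place to 1 library each.

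**Figure D1:**
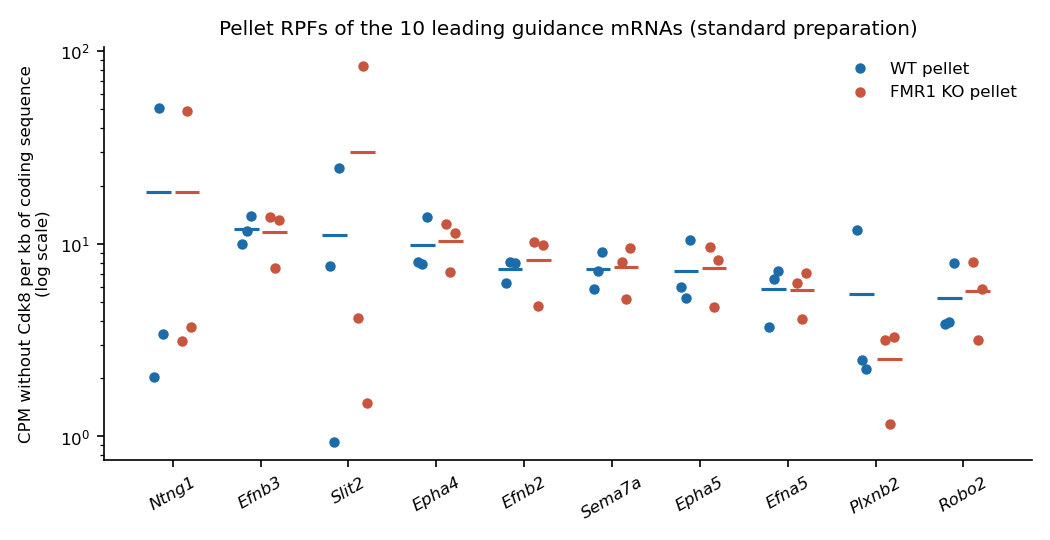
Pellet RPF level of the 10 leading guidance mRNAs in the standard preparation, as CPM without Cdk8 per kb of coding sequence on a log axis, with 1 point for each library and a line at the mean of 3. Efnb3, Epha4, Efnb2, Sema7a and Epha5 sit close together in both genotypes, and Ntng1 and Slit2 each have 1 library far above the other two.

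Such single libraries recurred in a few guidance genes. Ntng1, a synaptic organizer of the netrin-G family, was at 4.37, 109 and 7.30 CPM in the WT pellet, at 6.74, 106 and 7.93 CPM in the FMR1 KO pellet and at 140, 3.52 and 8.30 CPM in WT fraction 5/6. The high library lay 13.4 to 16.9 times above the next one in each of those groups, while the WT RNA-seq stayed between 13.3 and 26.3 CPM. Slit2 was at 36.2, 4.42 and 116 CPM in the WT pellet and at 19.3, 395 and 7.05 CPM in the FMR1 KO pellet. Plxnb2, a receptor for class 4 semaphorins, was at 65.1, 13.8 and 12.3 CPM in the WT pellet. Epha2, which the RNA-seq held at 0.202 to 0.570 CPM in WT, reached 1221 CPM in WT fraction 5/6 replicate 2 beside 15.6 and 0.163 CPM. Where in these genes the reads lie was not analysed here. Fold changes of these genes rest on single libraries.

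Ephrin-B3 was also the guidance gene with the most deposited RPF peaks. The authors deposited peaks of RPF coverage for each standard library, and 59 of 278002 peaks fell on 7 of the 71 guidance genes (9.86%, against 28.3% of protein-coding genes). The peaks of guidance genes were low, with heights of 1 to 21 and 47 of 59 under their library's median of 14 to 16, and it is not known whether the study's minimum height had already been used on these peak lists. Of these 7 genes, 5 have a single coding transcript (71.4%), as do 23.4% of the guidance genes without a peak, while over all genes the shares were 31.9% with a peak and 36.3% without. Efnb3 had 35 of them, in 10 of 12 libraries, and Sema7a had 14, in 7 libraries. Plxnd1 had 5, Plxnc1, the receptor of Sema7a, had 2, and Nrp1, Efna2 and Efnb2 had 1 each. Both Efnb3 and Sema7a had peaks in all 3 WT pellet libraries. FMR1 KO pellet replicate 2 and WT fraction 5/6 replicate 2 had no peak on a guidance gene. Of the 59 peaks, 56 lay in coding sequence and 3 in the 5′ UTR of Efnb3.

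Peaks of different libraries were matched by chaining each to the next where their middles lay within 6 nt, so a site can be wider than 6 nt, and this gave 8 sites holding 26 of the 59 peaks. The site shared by most libraries was in Efnb3, with middles at nt 1163 to 1182 of the 3183 nt mRNA, whose coding sequence runs from nt 393 to nt 1412. It spanned 19 nt and was found in 8 libraries, 2 of each of the 4 groups as labelled (among them WT fraction 5/6 replicate 3), of which at most 4 had middles within 6 nt of one another. The 2 other sites wider than 6 nt, in Efnb3 and Sema7a, spanned 7 nt each. The mRNA stretches under the sites found in 3 or more libraries, and under the site of Plxnc1, are shown because RPFs of these mRNAs gave peaks there in more than 1 library. Each is 30 nt of the GRCm38 genome read 5′ to 3′ on the strand of the gene, from within 1 coding exon, and the capitals mark the nt that all matched peaks share.
Efnb3, 8 libraries, chr11:69556089-69556118 (-): ggccaagcctTCGGAGAGTcgccaccctgg
Efnb3, 4 libraries, chr11:69557360-69557389 (-): tatgaGTTCTACAAACTGTACCTGgtagag
Efnb3, 3 libraries, chr11:69556704-69556733 (-): ggcaGCTCACAGCGCGGAACCTGGGaggga
Sema7a, 3 libraries, chr9:57957653-57957682 (+): ccgcatGCAAGCCAGCAATGGAGagacctt
Plxnc1, 2 libraries, chr10:94799335-94799364 (-): agaaGCATTCCAAGTAGTTCAAGGGAagag
The other 3 sites, each in 2 libraries, were 2 in Efnb3 and 1 in Sema7a.

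The leading Efnb3 site lay at 76.4% of the coding sequence and its matched peaks shared only 9 nt. The Efnb3 site in 4 libraries lay at 23.3% and was seen in 2 WT pellets, 1 FMR1 KO pellet and 1 FMR1 KO fraction 5/6. The Sema7a site in 3 libraries was seen in 2 WT pellets and 1 FMR1 KO fraction 5/6. The Plxnc1 site was found in 2 FMR1 KO pellets, with middles 1 nt apart. With 3 libraries a group, no site on a guidance gene was found in every library of a group when middles within 6 nt were chained. With middles within 12 nt, or with intervals sharing at least 1 nt, 1 site was in all 3 WT pellets, in Efnb3 at nt 627 to 645. The letters AGGA, TGGA and ACTG, searched on the mRNA strand alone, each occurred in 1 of the 8 site windows and ACTT in 0 of 8. The same letters occurred in 22.1%, 23.8%, 12.6% and 8.89% of 250735 windows of the same length around all deposited peaks. The leading Efnb3 window held none of these letters, which says only that they are not in those 30 nt.

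**Figure D2:**
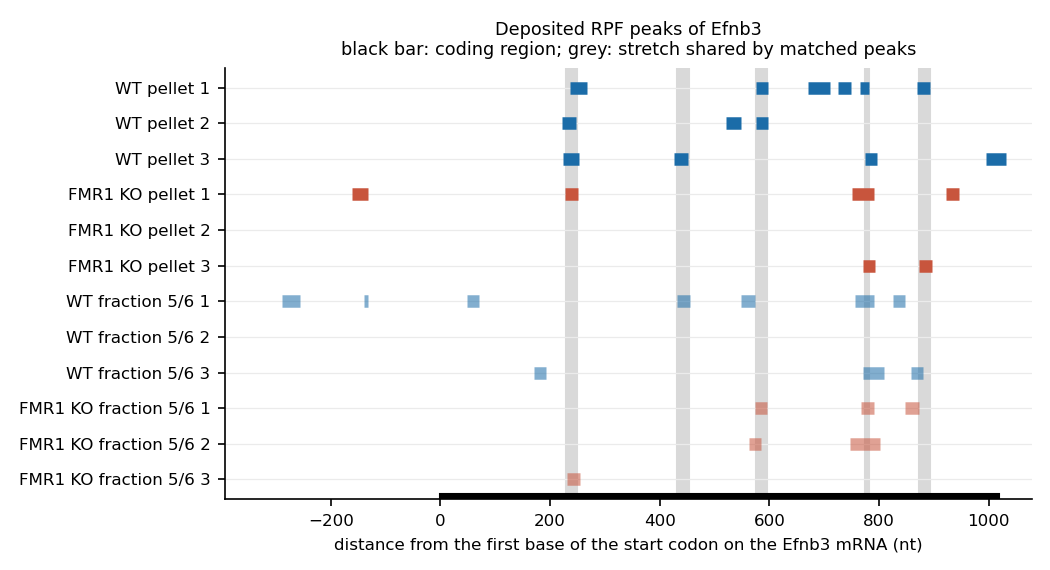
Deposited RPF peaks on the Efnb3 mRNA in the 12 standard RPF libraries, with the distance from the first base of the start codon in nt on the horizontal axis and 1 row per library. Grey bands mark the stretches shared by matched peaks, and the narrowest band crosses peaks of 8 libraries while FMR1 KO pellet 2 and WT fraction 5/6 2 have no peak.

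Occupancy, the pellet level against the RNA-seq level of the same genotype, asks which mRNAs give more or fewer pellet RPFs than their abundance in the brain. In the standard libraries 5 of 5 ephrin-A and 2 of 3 ephrin-B genes were called lower in the pellet than in the RNA-seq in WT. In FMR1 KO 3 of 5 and 2 of 3 were. Slit1 and Sema3c, both secreted, were called higher in both genotypes after TMM normalization. In the low nuclease libraries all 8 ephrins were called lower in WT and 4 in FMR1 KO, Slit1 had the opposite sign, and Sema3c did not pass, at 0.31 in WT and 0.03 in FMR1 KO. In WT, 5 of the 71 guidance genes passed an adjusted p of 0.05 as higher in the pellet (7.04%, against 31.2% of all genes tested) and 21 as lower (29.6%, against 34.3%), by edgeR's quasi-likelihood test. In FMR1 KO, 10 were higher (14.1%, against 31.9% of all genes) and 22 lower (31%, against 35.2%). The guidance genes had a median log2 fold change of -0.45 in WT and -0.30 in FMR1 KO, where all genes had -0.11 and -0.07. In these standard libraries lower calls were near the share over all genes and higher calls were fewer. In the low nuclease libraries 54 guidance genes were lower in WT (76.1%, against 27.6% of all genes) and 30 in FMR1 KO (42.3%, against 12.8%), while 1 was higher in WT (1.41%, against 24.9%) and 2 in FMR1 KO (2.82%, against 16%). Low nuclease RNA-seq of WT replicate 2 and FMR1 KO replicates 2 and 3 had 82.4% to 85% of counts on 10 genes. Without WT replicate 2, 49 guidance genes were lower and 1 higher, where 4764 of 16016 genes were lower and 4676 higher. Without FMR1 KO replicates 2 and 3, 1 RNA-seq library was left and the median was -1.58. Low nuclease occupancy values of the families below use all 3 RNA-seq libraries. The 5 higher calls in WT fell to 1 when any 1 of the WT RNA-seq libraries was left out, with the replicate block and with library size alone, and Epha2 and Ntn5 among them were high in 1 pellet library each. Of the lower calls, 16 were shared between the genotypes, and 4 of the higher calls were: Ntn5, Sema3c, Slit1 and Slit2. All fold changes are after TMM normalization, which sets the bulk of genes near 0. With library size alone the median of all genes was -1.26 in WT and -1.17 in FMR1 KO, so the values are relative to the other mRNAs.

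**Figure D3:**
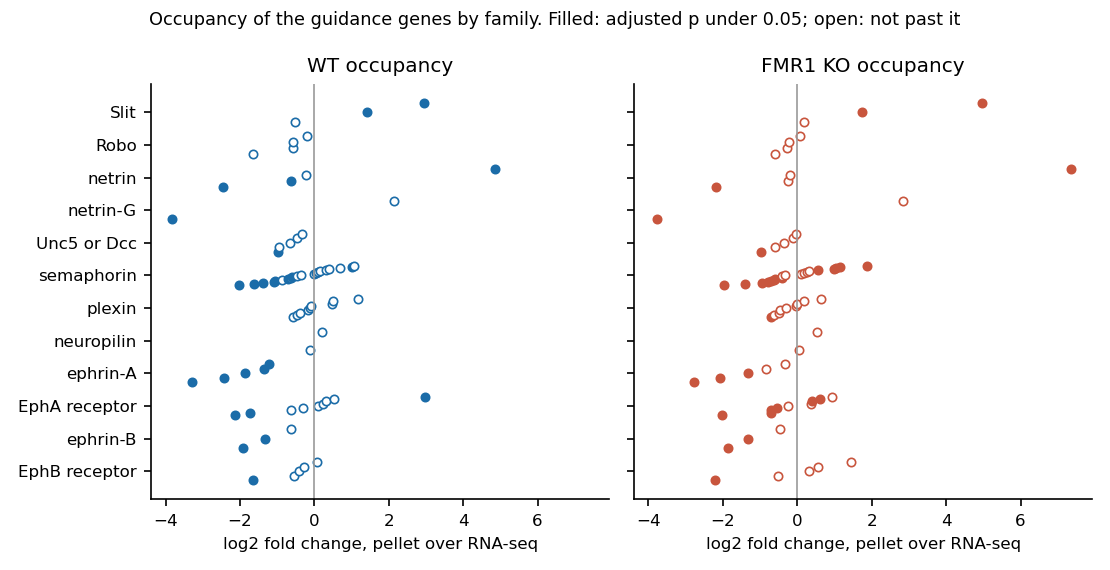
Occupancy of the 71 guidance genes by family in WT (left) and FMR1 KO (right), as the log2 fold change of pellet over RNA-seq after TMM normalization, with filled points where the adjusted p is under 0.05. The ephrin families lie left of 0 in both genotypes, Ntng2 lies farthest left near -3.8, and the filled points on the right include Slit1 and Slit2.

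Ephrins of both classes were low in the pellet. All 5 ephrin-A genes and 2 of 3 ephrin-B genes were called lower in WT, and 3 of 5 and 2 of 3 in FMR1 KO, with none higher. Efnb2 was at 6.30, 8.10 and 8.05 CPM in the WT pellet and at 60.6, 63.1 and 64.0 CPM in the WT RNA-seq. Its FMR1 KO pellet held 10.4, 4.79 and 9.93 CPM against 69.3, 46.2 and 76.2 CPM of RNA. The groups were far apart in both genotypes, and the log2 fold changes were -1.91 ± 0.13 (SE, adjusted p = 1.83e-05) and -1.85 ± 0.22 (adjusted p = 0.000305). Efnb3, although the leading ephrin of the pellet, fell by 1.34 on the log2 scale in WT (adjusted p = 0.00023) and by 1.31 in FMR1 KO (adjusted p = 0.000667). Efna5, the repellent that patterns topographic maps, was at 2.54, 4.50 and 4.95 CPM in the WT pellet against 26.2, 21 and 19.9 CPM of RNA, a log2 fold change of -1.36 ± 0.27 (adjusted p = 0.00285). Efna3 had -1.86 ± 0.24 in WT and -2.77 ± 0.20 in FMR1 KO. Efna2 had -3.30 ± 0.24 in WT, with a pellet of 0.564, 0.900 and 0.923 CPM. In the FMR1 KO pellet it was at 1.30, 10.3 and 1.28 CPM, and the value of -0.84 ± 0.87 did not pass (adjusted p = 0.416). Efna4 had -2.42 ± 0.39 and -2.07 ± 0.59, on 9 and 10 pellet counts in all. Coding sequence made up 14.7% of the exons of Efnb2 and 17% of those of Efna5, against a median of 37.2% over all protein-coding genes. The values of these genes with an offset for that coding share are not given here. With the offset Efna2 had -2.97 in WT, and Efna3 had -2.39 and Efna4 -2.14 in FMR1 KO.

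The Eph receptors that bind these ligands gave calls of both signs in the standard libraries. In WT, 2 of 9 EphA genes were called lower and 1 higher, and 1 of 5 EphB genes was lower. In FMR1 KO, 4 EphA genes were lower and 2 higher, and 1 EphB gene was lower. Over all genes 34.3% were lower and 31.2% higher in WT, and 35.2% and 31.9% in FMR1 KO. Epha4 was at 23.8, 23.2 and 40.7 CPM in the WT pellet with 53.5, 45.0 and 38.4 CPM of RNA, and at 37.5, 21.1 and 33.8 CPM in the FMR1 KO pellet with 46.4, 34.0 and 48.9 CPM of RNA. Its log2 fold change was 0.61 ± 0.15 in FMR1 KO (adjusted p = 0.00894) and 0.53 ± 0.28 in WT, which did not pass (adjusted p = 0.132). Epha5 had 0.38 ± 0.14 in FMR1 KO (adjusted p = 0.0478) and 0.09 ± 0.36 in WT. In the low nuclease libraries Epha5 was called lower in FMR1 KO, at -1.61 (adjusted p = 0.0161), and Epha4 had -0.68 (adjusted p = 0.136). There 4 of 9 EphA and 5 of 5 EphB genes were lower in WT, with none higher, and in FMR1 KO 3 of each were lower and 1 EphA gene was higher. Epha7 had 0.24 ± 0.30 and 0.37 ± 0.17, neither past the threshold. Epha3 was lower, with -1.74 ± 0.48 in WT and -0.54 ± 0.18 in FMR1 KO. Epha1 had -2.13 ± 0.44 and -2.03 ± 0.38, on 6 pellet counts in each genotype, and Ephb4 had -1.64 ± 0.29 and -2.21 ± 0.44. The 1 higher EphA call in WT was Epha2, whose 4.17 CPM in WT pellet replicate 2 stood beside 0.329 and 0.0839 CPM.

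Netrin-G2 was the guidance gene with the lowest occupancy in both genotypes of the standard preparation, while Sema6b lay below it in the low nuclease libraries (-2.74 against -2.54 in WT and -2.63 against -2.19 in FMR1 KO). Ntng2, a membrane-anchored relative of the netrins that binds partners across the synapse, was among the leading guidance mRNAs of the brain at 78.5, 77.3 and 84.9 CPM in the WT RNA-seq. Its WT pellet held 2.12, 2.94 and 2.68 CPM and its FMR1 KO pellet 2.92, 2.71 and 2.80 CPM. The pellet libraries were close together and far below the RNA, and the log2 fold changes were -3.82 ± 0.14 (adjusted p = 4.42e-06) and -3.77 ± 0.18 (adjusted p = 1.01e-05). Fraction 5/6 was as low in WT, with 3.19, 1.82 and 2.60 CPM. Ntn3, a secreted netrin, was at 0.799, 1.23 and 1.59 CPM in the WT pellet against 14.1, 14.3 and 14.3 CPM of RNA, with -2.45 ± 0.26 in WT and -2.18 ± 0.26 in FMR1 KO. Ntn1, the attractant of the ventral midline, had -0.64 ± 0.17 in WT (adjusted p = 0.013) and -0.19 ± 0.17 in FMR1 KO (adjusted p = 0.361). Its receptor Dcc did not pass, with -0.45 ± 0.27 in WT and -0.02 ± 0.27 in FMR1 KO. Dcc was called lower in low nuclease FMR1 KO, at -1.46 (adjusted p = 0.0313), as were Unc5c and Unc5d, and all 4 Unc5 genes were lower in low nuclease WT. Of the repulsive netrin receptors, Unc5a had -0.98 ± 0.26 in WT (adjusted p = 0.0125) and Unc5d had -0.98 ± 0.21 in FMR1 KO (adjusted p = 0.00542).

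Of the Slit and Robo genes, Slit1 and Slit2 were called higher in the pellet in both genotypes. Slit1 was at 12.2, 8.10 and 25.2 CPM in the WT pellet with 13.2, 14.4 and 11.3 CPM of RNA, and at 20.2, 13.7 and 16.2 CPM in the FMR1 KO pellet with 13.6, 7.11 and 12 CPM of RNA. Before normalization the groups overlapped in WT and did not in FMR1 KO. The log2 fold changes were 1.41 ± 0.42 (adjusted p = 0.0196) and 1.74 ± 0.24 (adjusted p = 0.000658). With an offset for the coding share of each gene's exons they were 0.34 (adjusted p = 0.497) and 0.66 (adjusted p = 0.0431). In the low nuclease libraries the same comparison had the opposite sign for Slit1, -0.87 (adjusted p = 0.0226) in WT and -1.02 (adjusted p = 0.12) in FMR1 KO. The calls of Slit2 were made on the uneven pellet levels given above. Slit3 did not pass, with -0.51 ± 0.38 and 0.19 ± 0.19. None of the 4 Robo genes passed in either genotype of the standard preparation, Robo1 with -0.59 ± 0.32 and -0.22 ± 0.14 and Robo2 with -0.21 ± 0.36 and 0.08 ± 0.21. Robo1 (-1.25 in WT and -1.66 in FMR1 KO), Robo2 (-1.17 and -1.56) and Slit3 (-1.10 and -1.31) were called lower in both genotypes of the low nuclease preparation and Robo3 in WT, and Slit2 had -0.84 and -0.88, which did not pass.

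Of the 20 semaphorins in the standard libraries, 1 was called higher and 7 lower in WT and 5 higher and 8 lower in FMR1 KO. Over all genes 31.2% were higher and 34.3% lower in WT, and 31.9% and 35.2% in FMR1 KO, so the lower calls lay near those shares. Low nuclease libraries had 15 lower in WT (against 27.6% of all genes) and 6 in FMR1 KO (against 12.8%), with none higher. Of the class 3 semaphorins, the secreted ones, 1 was called higher and 1 lower in WT, and 3 higher in FMR1 KO. Sema3c was at 4.28, 4.58 and 9.14 CPM in the WT pellet with 9.09, 5.21 and 5.60 CPM of RNA, and had 1.02 ± 0.39 in WT (adjusted p = 0.0494) and 1.14 ± 0.16 in FMR1 KO (adjusted p = 0.000766). Sema3e, which signals through plexin-D1, had 1.03 ± 0.26 in FMR1 KO (adjusted p = 0.0113) and 1.08 ± 0.50 in WT (adjusted p = 0.0956). Sema3d had 1.89 ± 0.59 in FMR1 KO with 2.72, 7.90 and 2.56 CPM in the pellet, and 0.85 without pellet replicate 2. Its call was lost when any 1 of the RNA-seq libraries was left out. Low nuclease FMR1 KO libraries had Sema3d at -0.50 and Sema3e at -0.97, neither past the threshold. With library size alone the signs of Sema3c in WT (-0.16) and Sema3e in FMR1 KO (-0.06) were reversed. Sema3f was lower in WT, at -1.06 ± 0.24 (adjusted p = 0.00648), and Sema3a did not pass in either genotype. The membrane semaphorins Sema4d, Sema4g, Sema6a, Sema6b, Sema6c and Sema6d were called lower in both genotypes. Of their receptors, 0 of 9 plexins passed in WT, 1 was lower in FMR1 KO (Plxnd1, at -0.72 ± 0.17), and neither neuropilin passed. The median over the plexins was -0.30 in FMR1 KO and that over the semaphorins -0.36. In the low nuclease libraries 8 of 9 plexins were lower in WT and 5 in FMR1 KO, with 1 neuropilin lower in each.

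Among all genes, those with a coding sequence of at least 3000 nt were called higher more often, 49.1% in WT against 28% of shorter genes. The guidance genes of at least 3000 nt were called higher in 6.25%, and shorter ones in 7.69%. Without WT pellet replicate 3, which stood above its group for most guidance genes, 3 guidance genes were higher (4.23%, against 30.7% of all genes) and 38 lower in WT (53.5%, against 34.7% of all genes), and the median moved to -0.70.

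Enrichment, the pellet against fraction 5/6, asks which mRNAs favour the granule pellet over the ribosome clusters that do not pellet. In FMR1 KO, 6 of 8 plexins, both neuropilins, both Robo genes tested and 2 of 3 Slits were higher in the pellet. So were 2 of 7 EphA receptors, 2 of 5 Unc5 and Dcc genes and 4 of 19 semaphorins, while no EphB receptor, ephrin, netrin or netrin-G gene passed. Whether the families differ from each other was not tested. Of 62 guidance genes tested, 20 were higher in the pellet (32.3%, against 9.11% of all genes) and 0 were lower (against 2.4%). At an unadjusted p under 0.05 there were 37 in all, and DESeq2 called 23 higher and 1 lower. The median was 0.78, against -0.04 over all genes.

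**Figure D4:**
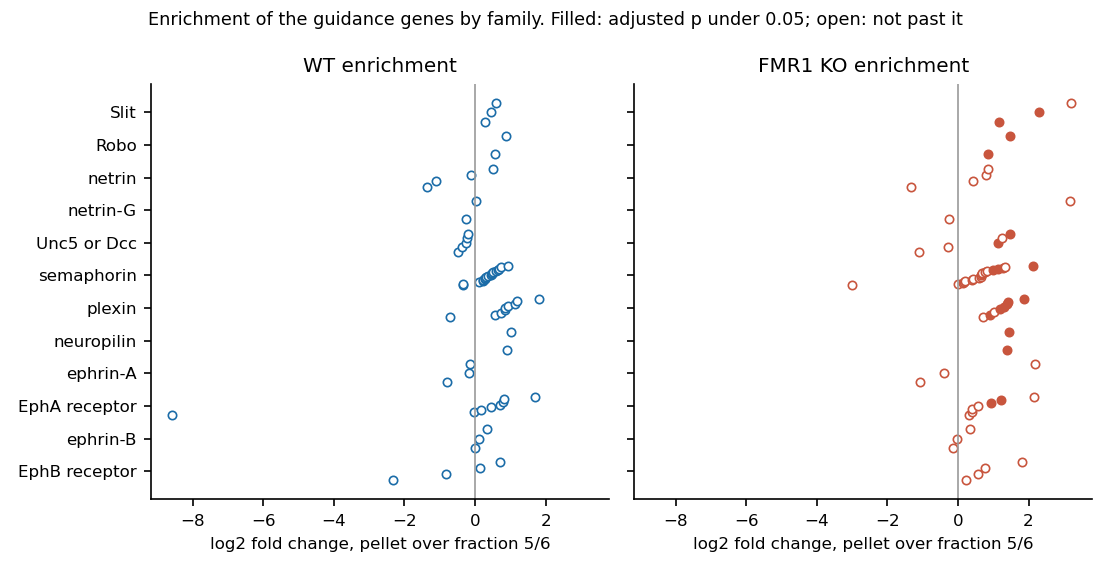
Enrichment of the guidance genes by family in WT (left) and FMR1 KO (right), as the log2 fold change of pellet over fraction 5/6 after TMM normalization, with filled points where the adjusted p is under 0.05. The 20 filled points are all in FMR1 KO and right of 0, most of them plexins, neuropilins, Robos and semaphorins, while WT has none and Epha2 lies far left at -8.58 on the reads of 1 library.

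Receptors for semaphorins made up 8 of these 20 genes. Plxna1 was at 32.5, 15.8 and 32.8 CPM in the FMR1 KO pellet and at 8.25, 9.63 and 20.8 CPM in fraction 5/6, a log2 fold change of 1.43 ± 0.24 (adjusted p = 0.0139). Before normalization the lowest pellet library lay under the highest fraction 5/6 library, as it did for other plexins. Plxna3 was at 14, 5.11 and 14.1 CPM against 2.37, 2.80 and 6.54 CPM, with 1.87 ± 0.35 (adjusted p = 0.0203). Plxna4 had 1.39 ± 0.22, Plxna2 1.30 ± 0.25 and Plxnd1 1.18 ± 0.16. Nrp1, the neuropilin that binds Sema3a, was at 13.7, 5.66 and 12.5 CPM against 2.99, 4.40 and 7.47 CPM, with 1.43 ± 0.28 (adjusted p = 0.0233), and Nrp2 had 1.39 ± 0.35 (adjusted p = 0.0496). Among the semaphorins, Sema3e was at 4.09, 1.83 and 2.48 CPM against 0.413, 1.14 and 0.467 CPM, with 2.13 ± 0.48 (adjusted p = 0.0368), and Sema3c had 1.13 ± 0.24 (adjusted p = 0.031). Sema3e did not pass with the replicate block (adjusted p = 0.0761), with library size alone or in the low nuclease libraries. When 1 library was left out, its call was kept only without fraction 5/6 replicate 2.

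The Slit and Robo pair and the netrin receptors gave further calls. Slit1 had 20.2, 13.7 and 16.2 CPM in the FMR1 KO pellet and 4.95, 3.34 and 3.50 CPM in fraction 5/6, with no overlap and a log2 fold change of 2.31 ± 0.30 (adjusted p = 0.00666). Slit3 had 1.16 ± 0.27 (adjusted p = 0.0425). Robo2 was at 38.1, 15.0 and 27.7 CPM against 8.46, 9.70 and 18.2 CPM, with 1.48 ± 0.26 (adjusted p = 0.0163), and Robo1 had 0.85 ± 0.19 (adjusted p = 0.0345). Dcc was at 21.6, 25.3 and 19.5 CPM against 7.22, 11.2 and 12.4 CPM, again without overlap, with 1.46 ± 0.27 (adjusted p = 0.0207). Unc5b had 1.13 ± 0.27 (adjusted p = 0.0452). Epha4, at 37.5, 21.1 and 33.8 CPM against 13, 16.1 and 18.4 CPM, had 1.23 ± 0.15 (adjusted p = 0.00534) and Epha5 0.93 ± 0.18 (adjusted p = 0.0229). Their ligand Efna5 had -0.39 ± 0.25 and did not pass, and Efnb3 had -0.15 ± 0.23. None of the 6 ephrins tested passed.

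The counts differed by coding length and by scaling, and the cause was not tested. Of all genes with at least 3000 nt of coding sequence, 39.7% were called higher in FMR1 KO, against 46.4% of guidance genes of that length. Of shorter genes, 3.17% were called higher, against 20.6% of the guidance genes. With library size alone in place of TMM, 1 guidance gene remained called and the median of all genes shifted to -0.34, with the guidance genes at 0.48. Leaving out 1 library at a time gave 3 to 20 calls, with 3 without fraction 5/6 replicate 1, 5 without pellet replicate 1, 6 without pellet replicate 3 and 12 without fraction 5/6 replicate 2. The replicate block gave 11 calls among the guidance genes and 662 over all genes.

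In WT none of 63 guidance genes passed in enrichment, at a background of 0.0153% of all genes higher and 0.00765% lower. At an unadjusted p under 0.05 there were 3, and DESeq2 called 1, Ephb1 as lower. The median was 0.33. Robo2 was at 18.1, 18.6 and 37.7 CPM in the WT pellet and at 9.45, 5.34 and 28.5 CPM in fraction 5/6, where the highest value belongs to the library with low Fmr1. Plxna1 had the same shape, with 21.1, 18.5 and 35.9 CPM in the pellet and 10.1, 7.04 and 30.5 CPM in fraction 5/6. Without that library, whose label its Fmr1 contradicts, 4 of 64 guidance genes passed as higher, against 7.78% of all genes, and 1 as lower, where 246 of 13232 genes were. Nrp1 then had 2.21 ± 0.41 (adjusted p = 0.036), Plxnd1 1.60 ± 0.31 (adjusted p = 0.0387) and Plxnb1 1.30 ± 0.25 (adjusted p = 0.0385), and Plxnb3 was the other. Ephb1 was the lower gene, with 15.3, 6.95 and 8.81 CPM in the WT pellet and 44.0, 67.0 and 34.4 CPM in fraction 5/6. Dcc, without overlap in FMR1 KO, was at 12.9, 16.8 and 20.7 CPM in the WT pellet and at 17.8, 22.7 and 22.4 CPM in WT fraction 5/6.

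The low nuclease libraries are separate libraries, and the same comparison was made in them. Of 71 guidance genes, 39 passed as higher in WT (54.9%, against 14.3% of all genes) and 9 in FMR1 KO (12.7%, against 8.82%). The FMR1 KO share lay near that of all genes. None was lower in either genotype, where 1338 of 15570 genes were lower in WT and 1836 of 15562 in FMR1 KO. In WT 8 of 9 plexins, 2 of 2 neuropilins and 12 of 20 semaphorins passed, and in FMR1 KO 1 of 9, 2 of 2 and 2 of 20. Plxna3 had 2.1 ± 0.24 (adjusted p = 0.00772), Nrp2 1.71 ± 0.23, Nrp1 1.70 ± 0.15 and Robo2 1.63 ± 0.18. Slit1 was at 49.3, 47.5 and 68.3 CPM in the low nuclease WT pellet and at 6.79, 11.1 and 10.3 CPM in fraction 5/6, with 2.67 ± 0.23 (adjusted p = 0.00486), and it had 2.02 ± 0.38 in FMR1 KO (adjusted p = 0.0208). Epha4 had 1.70 ± 0.16 in WT and 1.33 ± 0.28 in FMR1 KO. The ephrin-A genes did not pass in either genotype, while 2 of 3 ephrin-B genes, Efnb1 (adjusted p = 0.0168) and Efnb2 (adjusted p = 0.043), were higher in WT and 0 of 3 in FMR1 KO. Of the 20 genes called in the standard FMR1 KO libraries, 17 were among the 39 called in low nuclease WT, which is 85% of the first list and 43.6% of the second. The overlap with the 9 of low nuclease FMR1 KO was 7 genes, 35% and 77.8%. For comparison, 54.9% of the 71 guidance genes were called in low nuclease WT and 12.7% in low nuclease FMR1 KO. Such an overlap was not computed over all genes.

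FMR1 KO was then compared with WT directly, and no guidance gene passed in any of 4 comparisons. Abundance, the pellet of FMR1 KO against WT, was tested for 63 guidance genes, with 0 called, against 0.015% of all genes, and 5 at an unadjusted p under 0.05. The median was 0.11 with 48 genes above 0, and in the low nuclease libraries it was -0.41 with 9 of 71 above 0, 12 genes at an unadjusted p under 0.05 and 0 called. Occupancy gave 0 of 71, against 0.0673% of all genes, with 3 at an unadjusted p under 0.05. Enrichment gave 0 of 64, against 0% of all genes, with 5 at an unadjusted p under 0.05, and RNA-seq gave 0 of 71, against 0.0736%, with 4. DESeq2 also called 0 in each of the 4. The lowest adjusted p among guidance genes was 0.867, 0.744, 0.803 and 0.999 in that order. The calls in FMR1 KO enrichment above are thus not shown to differ from WT.

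For the ligand and receptor pairs the pellet levels of the genotypes overlapped or lay close. Efnb3 was at 10.2, 11.9 and 14.3 CPM in the WT pellet and at 14.1, 7.66 and 13.5 CPM in the FMR1 KO pellet, a log2 difference of -0.04 ± 0.20. Epha4 differed by 0.07 ± 0.28, Epha5 by 0.04 ± 0.33, Robo2 by 0.09 ± 0.39 and Slit1 by 0.14 ± 0.45. Sema3a, Nrp1 and Nrp2 differed by 0.09 ± 0.30, 0.20 ± 0.31 and 0.13 ± 0.45. Ephb1, a receptor for ephrin-B, was at 15.3, 6.95 and 8.81 CPM in WT and at 34.6, 53.5 and 10.0 CPM in FMR1 KO, where 2 libraries lay above all WT libraries, with 1.83 ± 0.73 (unadjusted p = 0.0445, adjusted p = 0.867). Dcc had the lowest unadjusted p of the enrichment interaction, 0.00222, with a difference of 1.87 ± 0.46 (adjusted p = 0.803). Leaving out the WT fraction 5/6 library with low Fmr1 gave 1.89 ± 0.50 (adjusted p = 0.618), with 4 guidance genes at an unadjusted p under 0.05, and in the low nuclease libraries it was -0.25 ± 0.50. The median interaction over the guidance genes was 0.43, and without that library it was -0.0043. In the low nuclease libraries the median was -0.33, with 11 of 71 genes above 0. In occupancy 1 guidance gene passed without WT pellet replicate 3, Ntn5, which has hardly any RNA-seq reads. The guidance genes that stand on the published FMRP target lists used by the study, Epha4, Plxna1, Plxna2, Plxna4, Plxnb1, Plxnd1, Unc5a and Robo2, did not pass between genotypes, with pellet differences from -0.41 ± 0.22 (Plxnd1) to 0.36 ± 0.77 (Unc5a).

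The standard and low nuclease pellets were then compared within each genotype. In the WT pellet 49 of 68 were lower in the standard than in the low nuclease preparation (72.1%, against 23.8% of all genes) and 0 were higher (against 15%), with a median of -1.40 where all genes had -0.05, and 28 were lower without standard replicate 1. In FMR1 KO 16 of 68 were lower (23.5%, against 9.36%) and 0 higher (against 7.35%), with a median of -0.85. That count was 5 with the replicate block, 2 without standard replicate 1, 7 without standard replicate 2, 3 without standard replicate 3 or either of low nuclease replicates 2 and 3, and 41 without low nuclease replicate 1, while the median stayed between -1.05 and -0.60. Plxna1 was at 132, 129 and 155 CPM in the low nuclease WT pellet, and all 3 were above the 21.1, 18.5 and 35.9 CPM of the standard pellet. Sema3f, with 6.97, 6.17 and 13 CPM against 0.940, 1.64 and 1.09 CPM, had -2.35 ± 0.39 (adjusted p = 0.00809). Epha3 had -2.13 ± 0.45, Sema4d -2.07 ± 0.27 and Epha5 -2.03 ± 0.45. In FMR1 KO Ntng2 had -1.47 ± 0.18, Efna5 -1.39 ± 0.34 and Sema3f -1.30 ± 0.23.

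Ntn5 stood apart in this comparison. Its low nuclease pellets held 892, 828 and 1106 CPM in WT and 1023, 1058 and 463 CPM in FMR1 KO, while the standard WT pellet held 0, 0.0818 and 7.63 CPM and the standard WT RNA-seq 0.178, 0.159 and 0.261 CPM. Its log2 fold change was -7.94 ± 2.01 in WT (adjusted p = 0.0254) and -5.97 ± 0.65 in FMR1 KO (adjusted p = 0.00562). Epha2 in FMR1 KO had -4.58 ± 0.60 (adjusted p = 0.00955), from 13.5, 5.63 and 17.1 CPM in the low nuclease pellet and at most 0.479 CPM in the standard pellet.

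The RNA-seq of the same preparations was compared too. In 1 of the WT and 2 of the FMR1 KO low nuclease RNA-seq libraries, up to 85% of counts fell on 10 genes, and these 3 libraries were left out. In the others 66 of 71 guidance genes were lower in the standard WT RNA-seq (93%, against 23.4% of all genes), with a median of -2.0 where all genes had 0.03. In FMR1 KO 63 of 71 were lower (88.7%, against 24.4%), with a median of -2.14, but only 1 low nuclease library was left, which the test assumes to vary like the standard ones. MgCl2, nuclease and the preparation itself changed together and cannot be told apart.

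**Figure D5:**
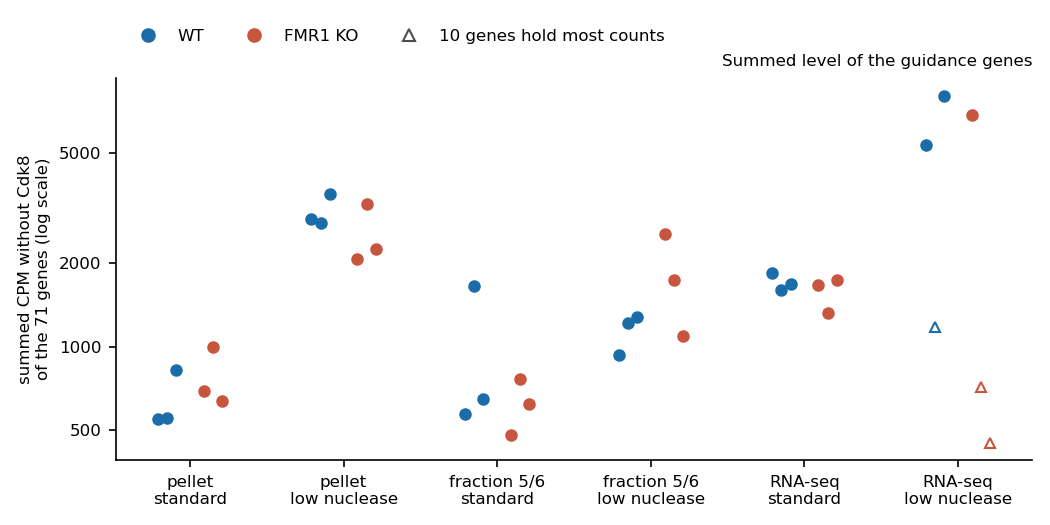
Summed level of the 71 guidance genes in each library, as CPM without Cdk8 on a log axis, by preparation and by pellet, fraction 5/6 or RNA-seq, with triangles for the 3 RNA-seq libraries in which 10 genes hold most counts. The low nuclease pellets lie above the standard pellets in both genotypes, and the remaining low nuclease RNA-seq libraries lie above the standard ones.

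Other genes of the guidance pathway, from lists of co-receptors and further cues (14 genes), cytoplasmic adaptors and collapsin response mediators (19) and kinases (18), give the setting. In WT occupancy 4 co-receptors were higher and 7 lower, with a median of -0.99, while the adaptors had 11 higher and 4 lower, with a median of 0.52. The kinases had 7 higher and 5 lower, and of all genes 31.2% were higher and 34.3% lower. In FMR1 KO enrichment 6 of 14 co-receptors were higher, 2 of 19 adaptors and 1 of 18 kinases, against 9.11% of all genes, and 1 adaptor was lower. Between preparations 11 of 14 co-receptors were lower in the standard WT pellet, and 2 adaptors and 3 kinases were, against 23.8% of all genes. Differences between these lists and the ligands and receptors were not tested.

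The levels of the rows matched by name alone were uneven between libraries. Unc50 was at 2.63, 1.96 and 226 CPM in the WT pellet and at 3.76, 2.23 and 3.68 CPM in the FMR1 KO pellet. Unc5cl was at 0.188, 10.2 and 5.62 CPM in the WT pellet and at 36.7, 85.0 and 17.8 CPM in the FMR1 KO pellet, with 0.231 to 0.394 CPM in the standard RNA-seq.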

How the data were processed

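RPFs of the pellet and of fraction 5/6 and RNA-seq of whole brain homogenate were analysed in 36 libraries, 3 for each combination, grouped by their labels. The deposited counts are whole numbers for each gene without normalization. The authors trimmed adapters (Cutadapt 2.10), dropped reads that matched ribosomal or other non-coding RNA (Bowtie2 2.3.5), mapped the rest to GRCm38 (STAR 2.7.8a), removed duplicates (Picard, SAMtools 1.19.2) and counted reads per gene (featureCounts 2.2.0). Removing duplicates lowers the counts of positions with many identical short RPFs. The deposited peak files give intervals of RPF coverage, called by the authors per sample on Ensembl transcripts, with a peak score as height. Its scaling, and whether a minimum height had been used on the peak lists, are not given in the sources used here.

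The members, gene lists and tests were chosen with earlier results of these data known. Named genes were the 10 with the highest WT pellet level per coding length, the 5 highest and 5 lowest called fold changes without overlap in each comparison, called genes between genotypes or preparations, members on FMRP target lists, defined ligand and receptor pairs, and members with peaks in all 3 pellets of a genotype. A further list of pathway genes is not reported here. Genes named outside this rule were chosen after their values were seen. Counts were tested in R 4.3.3 with edgeR 4.0.16 (filterByExpr, TMM, quasi-likelihood test, only the compared groups) on protein-coding genes, with Benjamini-Hochberg adjustment over all genes tested and a threshold of 0.05. DESeq2 1.42.0 was an alternative. Genes given by an Ensembl ID with no symbol held at most 0.607% of a library and stayed in the totals, and Cdk8 was left out of the totals behind CPM. Errors on log2 fold changes are SE derived from the test, as the absolute log2 fold change divided by the square root of the quasi-likelihood F statistic. Peaks were chained where the middles of neighbours lay within 6 nt, in Python 3.11.15 with pandas 2.3.3. The procedure was tested on simulated data. With 3 libraries against 3 an exact permutation test of a single value cannot go below p = 0.1, so none was used.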

Additional observations from a re-analysis of the deposited data

How the results depend on the processing

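The number of guidance genes called moved with scaling, preparation and single libraries, as did the number over all genes, and the cause was not tested. Over all genes, library size alone took the calls from 10569 to 12368 in WT occupancy and from 1524 to 174 in FMR1 KO enrichment, and leaving out 1 library gave 469 to 4449 between preparations in FMR1 KO. In WT occupancy 26 genes were called, 60 with library size alone, 55 with the low nuclease libraries, 50 when the RNA-seq library led by 10 genes was also left out, and 18 to 41 when 1 library was left out. In FMR1 KO occupancy 32 were called, 55 with library size alone, 21 with all groups fitted together, 49 with fraction 5/6 in place of the pellet, and 23 to 40 when 1 library was left out. In WT enrichment 0 were called, 1 with DESeq2, 39 with low nuclease libraries and 0 to 5 when 1 library was left out. In FMR1 KO enrichment 20 were called, 1 with library size alone, 13 with all groups together, 9 with low nuclease libraries and 3 to 20 when 1 library was left out. Occupancy between genotypes gave 0 to 1 when 1 library was left out. Between preparations 49 were called in WT (28 to 54 when 1 library was left out) and 16 in FMR1 KO, where DESeq2 called 31, library size alone 42, the RNA-seq libraries 63, and leaving out 1 library gave 2 to 41. The site count fell from 8 to 2 when only peaks at or above the library's median height were used, and was 10, of which 1 was in all WT pellets, with middles within 12 nt or with intervals sharing at least 1 nt, the latter chosen after seeing the data, as were the settings that left out RNA-seq libraries led by 10 genes.

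The replicate block gave 11 calls in FMR1 KO enrichment and 5 between preparations in FMR1 KO. Replicate numbers did not pair the libraries, since correlations of deviations ran from -0.155 to 0.227 and no pair of groups had all of them above 0.1.

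Of 398 alternatives for 32 named gene results, 326 kept direction and call, 61 lost the call and 11 reversed. With low nuclease libraries, occupancy was -0.873 for Slit1 in WT, and -1.02 for Slit1, -0.503 for Sema3d and -0.967 for Sema3e in FMR1 KO. With the RNA-seq libraries led by 10 genes also left out, it was -0.897 for Slit1 in WT, and -1.623 for Slit1, -0.272 for Sema3c, -0.371 for Sema3d and -0.472 for Sema3e in FMR1 KO. With library size alone, Sema3c had -0.158 in WT and Sema3e -0.0604 in FMR1 KO. Depth limits genes with under 10 pellet counts, such as Epha1, Efna1 and Efna4.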
